A study of Mus musculus with 8 samples.

Results

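The let-7 family was followed across C3H10T1/2 cells, a line of mouse mesenchymal cells able to answer hedgehog signals, with and without Indian hedgehog N-terminal protein (IhhN). Its members were the 8 let-7 5p forms that the array names, mmu-let-7a-5p, mmu-let-7b-5p, mmu-let-7c-5p, mmu-let-7d-5p, mmu-let-7e-5p, mmu-let-7f-5p, mmu-let-7g-5p and mmu-let-7i-5p (written let-7a and so on below), out of 611 mouse miRNAs on the array. Cells of the WT group received wild type IhhN and cells of the MT group received E95K mutant IhhN, both recombinant human proteins at 750 nM for 48 h, and cells of the control group were labelled as induced with no protein. One label field also gives the control group 750 nM, against the other fields. Each group had 2 RNA samples (n = 2). Each WT RNA was read on 2 one-colour Agilent arrays, and each MT and control RNA on 1, which made 8 arrays on 1 slide. Nothing in the labels says that the replicates were separate cultures, so the p-values measure only the spread between these samples, which may be technical. All groups were 1 cell line in culture, so the values describe these cells under added protein and not cartilage tissue.

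A miRNA is a short RNA that guides a silencing complex to mRNAs and lowers their output, and its seed, bases 2 to 8, leads the pairing. The let-7 miRNAs are made from several genes and share a seed. They are known for accumulating as cells differentiate and for repressing growth and stem cell genes such as Hmga2, Lin28 and Ras family members, and the RNA-binding protein Lin28 in turn blocks their maturation. Indian hedgehog controls the growth and maturation of cartilage cells and acts through Ptch1, Smo and the Gli transcription factors.

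The mature sequences are shown because the members differ by so few bases that the probes of 1 member may also take up its relatives. They come from RefSeq (GRCm38.p6), with the seed in capitals, and the last line is miR-98, a relative that is no member.
let-7a: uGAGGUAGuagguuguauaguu
let-7b: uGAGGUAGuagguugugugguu
let-7c: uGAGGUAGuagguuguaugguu
let-7d: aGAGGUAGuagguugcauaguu
let-7e: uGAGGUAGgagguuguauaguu
let-7f: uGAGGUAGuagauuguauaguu
let-7g: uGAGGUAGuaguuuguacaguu
let-7i: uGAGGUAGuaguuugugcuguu
miR-98: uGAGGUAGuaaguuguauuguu

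All 9 are 22 bases long and carry the seed GAGGUAG. RefSeq holds 11 mature mouse miRNAs with that seed, of which these 9 were on the array. With positions counted from 1 at the 5′ end and the base of let-7a given first, let-7b differs from let-7a by A17G and A19G, let-7c by A19G, let-7d by U1A and U16C, and let-7e by U9G. The members let-7f (G12A), let-7g (G12U and U18C) and let-7i (G12U, A17G, U18C and A19U) differ from let-7a at position 12. Of the 28 pairs of members, 4 differ by 1 base and the most distant pair, let-7d and let-7i, by 6 bases.

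The table of hairpins used here placed 10 genes of the 8 members on 7 chromosomes of GRCm38.p6. Mirlet7a-1 (chr13:48538179-48538272), Mirlet7f-1 (chr13:48537829-48537917) and Mirlet7d (chr13:48536012-48536114) lie together on the minus strand, outside the other annotated genes. Mirlet7c-2 (chr15:85706603-85706697) and Mirlet7b (chr15:85707319-85707403) lie 622 bases apart on the plus strand inside the long noncoding RNA gene Lncppara. Mirlet7c-1 (chr16:77599657-77599750, plus strand) is next to Mir99a, and Mirlet7e (chr17:17830352-17830444, plus strand) lies inside Spaca6, 368 bases from Mir125a. Mirlet7f-2 (chrX:151912346-151912428, plus strand) shares Huwe1 with Mir98. Mirlet7g (chr9:106178840-106178927, plus strand) lies inside Wdr82, and Mirlet7i (chr10:122985640-122985724, minus strand) lies outside other genes. Since let-7a, let-7c and let-7f each have more than 1 gene with the same mature product (for let-7a, Mirlet7a-2 as well), their values cannot be assigned to a single locus.

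Every member was detected on all 8 arrays, by 2 probes of 10 spots each, and no spot on any array was saturated. Of the 611 mouse miRNAs, 142 were detected on every array of at least 1 group and were tested, and 103 were detected on all 8 arrays. Fewer miRNAs were detected on the arrays of WT replicate 1 (104 and 117) and MT replicate 1 (106) than on the other arrays (143 to 150). The control arrays were the brightest: their 75th percentile of probe signal was 785 and 606 signal units, against 442 to 565 on the WT arrays and 432 to 442 on the MT arrays. This brightness was divided out before any comparison, so a value is a level relative to the other miRNAs of its array and not an absolute amount. In bulk RNA, fewer cells of a type and less RNA per cell cannot be told apart. Of 12 mesenchymal miRNAs, 7 were detected on all 8 arrays and 2 on none, and of 38 miRNAs that mark liver, neurons, blood cells, muscle, epithelium or embryonic stem cells, 37 were detected on no array and 1 on a single array.

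In both protein groups let-7a, let-7b and let-7c had higher mean levels than in the control group, let-7d and let-7e were higher by less, let-7f was close to the control, and let-7g and let-7i had lower means. None of these differences passed the adjusted threshold. For let-7a to let-7f in MT, and for some of these in WT, the direction depended on the scaling. With the 75th percentile taken over all mouse probes, the MT differences became -0.20 for let-7a, -0.04 for let-7b, -0.11 for let-7c, -0.28 for let-7d and -0.45 for let-7e, while the median of all tested miRNAs moved from 0.13 to -0.51. The WT and MT comparisons share the same 2 control samples, so they are not separate evidence. Levels are given below as log2 of the scaled signal of a member's brighter probe, the 6 RNA samples in the order WT, MT and control. Different members are read by different probes, so a higher level in 1 member than in another does not show more molecules, and comparisons are between groups within a member or within a fixed set of members.

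**Figure D1:**
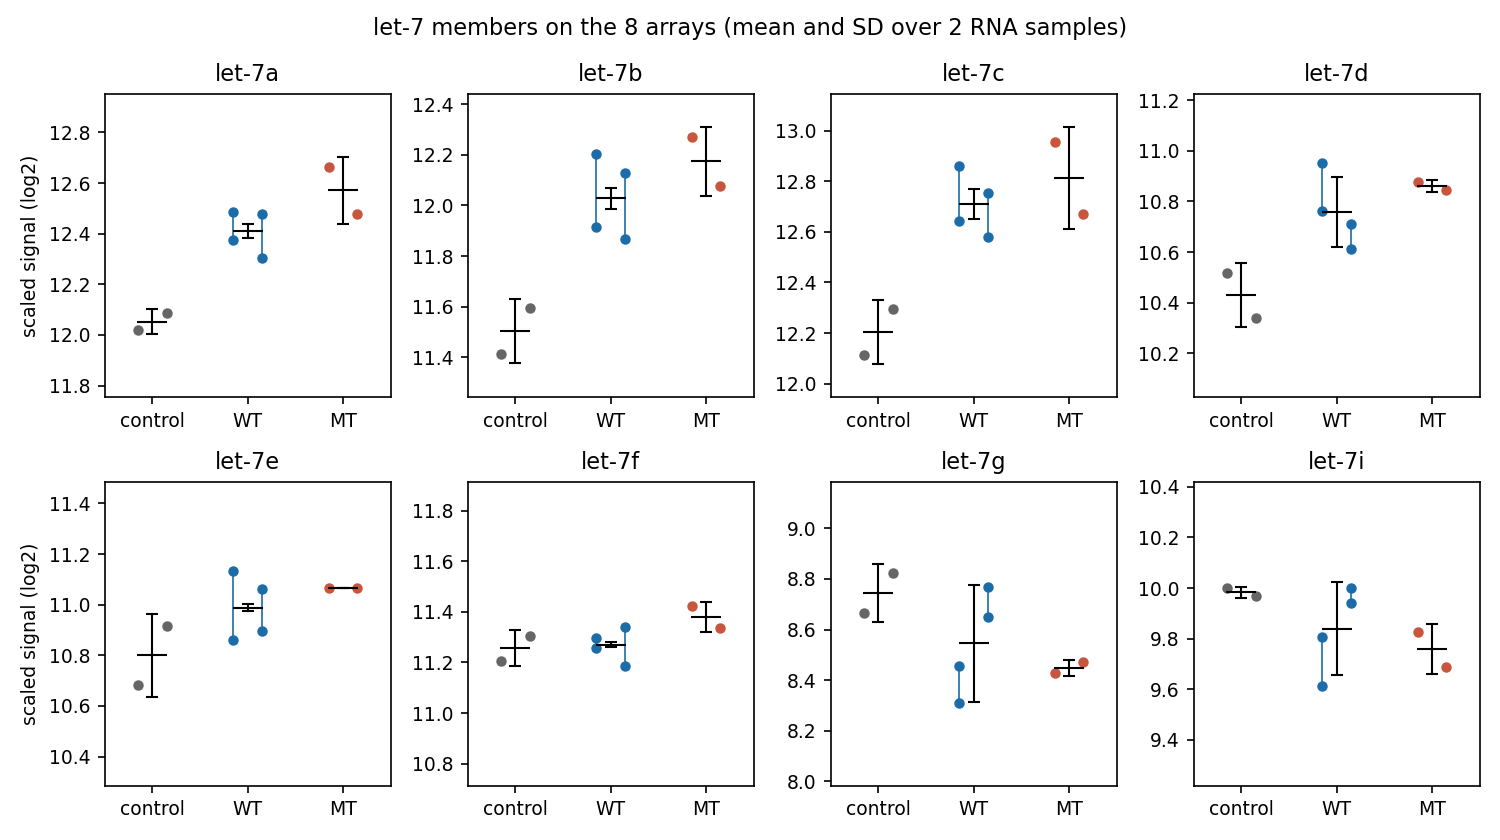
Scaled signal of each let-7 member (log2, y axis, each panel spanning the same range of 1.2 units) by group (x axis), with 1 point per array, lines joining the 2 arrays of a WT RNA, and the mean and SD over 2 RNA samples in black. The control points lie lowest for let-7a, let-7b, let-7c and let-7d, and let-7g and let-7i have their highest group mean in the control.

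For mmu-let-7b-5p, the levels were 12.06 and 12.00 in WT, 12.27 and 12.08 in MT, and 11.41 and 11.59 in the control. Both control samples were lower than every sample given protein, and lower than every single WT array. Single WT and MT arrays overlapped. The WT level exceeded the control by 0.53 (SE 0.16, 1.44-fold, limma adjusted p = 0.139) and the MT level by 0.67 (SE 0.16, 1.59-fold, adjusted p = 0.0611).

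For mmu-let-7c-5p, which differs from let-7b at position 17 alone (A17G from let-7c to let-7b), the levels were 12.75 and 12.67 in WT, 12.96 and 12.67 in MT, and 12.11 and 12.29 in the control. The control samples were again the lowest, and the lower MT sample stood level with the lower WT sample. The differences from the control were 0.50 (SE 0.17, adjusted p = 0.139) for WT and 0.61 (SE 0.17, adjusted p = 0.0614) for MT.

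For mmu-let-7a-5p, the levels were 12.43 and 12.39 in WT, 12.67 and 12.48 in MT, and 12.02 and 12.09 in the control. The RNA samples of the 3 groups did not overlap, with the control lowest and MT highest. The WT level exceeded the control by 0.36 (SE 0.15, adjusted p = 0.170) and the MT level by 0.52 (SE 0.15, adjusted p = 0.0633).

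For mmu-let-7d-5p, whose gene lies in the cluster of Mirlet7a-1, the levels were 10.86 and 10.66 in WT, 10.88 and 10.84 in MT, and 10.52 and 10.34 in the control. The control samples were the lowest, and the WT and MT samples overlapped. The differences from the control were 0.33 (SE 0.16, adjusted p = 0.208) for WT and 0.43 (SE 0.16, adjusted p = 0.0981) for MT.

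For mmu-let-7e-5p, the levels were 11.00 and 10.98 in WT, 11.07 and 11.07 in MT, and 10.68 and 10.92 in the control. The control samples were the lowest, but they stood 0.23 apart, and 2 of the 4 single WT arrays, at 10.86 and 10.90, were below the higher control. The differences were 0.19 (SE 0.15, adjusted p = 0.416) and 0.27 (SE 0.15, adjusted p = 0.219).

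For mmu-let-7f-5p, the levels were 11.28 and 11.26 in WT, 11.42 and 11.34 in MT, and 11.21 and 11.31 in the control. The WT samples lay between the control samples and the MT samples lay just above them. The differences were 0.01 (95% interval -0.33 to 0.36) for WT and 0.12 (95% interval -0.22 to 0.47) for MT, so neither direction was shown.

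For mmu-let-7g-5p, the levels were 8.38 and 8.71 in WT, 8.43 and 8.47 in MT, and 8.66 and 8.82 in the control. Both MT samples were below both control samples, whereas the 2 WT samples fell on either side, one with MT and the other with the control. The differences were -0.20 (SE 0.17, adjusted p = 0.445) for WT and -0.30 (SE 0.17, adjusted p = 0.219) for MT.

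For mmu-let-7i-5p, the levels were 9.71 and 9.97 in WT, 9.83 and 9.69 in MT, and 10.00 and 9.97 in the control. The MT samples were below the control, and WT was again split, with replicate 1 beside MT and replicate 2 beside the control. The differences were -0.14 (SE 0.16, adjusted p = 0.543) for WT and -0.23 (SE 0.16, adjusted p = 0.308) for MT.

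Across the family, 0 of 8 members passed an adjusted p of 0.05 by limma with Benjamini-Hochberg adjustment in WT against control, in MT against control or in WT against MT, as did 0% of the 142 miRNAs. At an unadjusted p under 0.05, 3 of 8 members (let-7a, let-7b and let-7c) were higher in WT than in control, where 17.6% of all tested miRNAs were, and 4 of 8 (these and let-7d) were higher in MT than in control, where 26.8% were. No member was lower at that threshold, against 10.6% of tested miRNAs in WT and 12.7% in MT. The RNA samples did not overlap, with protein higher, for 5 of 8 members in WT (39.4% of tested miRNAs) and 6 of 8 in MT (40.8%). They did not overlap, with protein lower, for 0 of 8 members in WT (25.4%) and 2 of 8, let-7g and let-7i, in MT (26.8%). On single arrays protein was higher without overlap for 4 of 8 members in WT (29.6%). MT and control RNA had no repeat arrays. For MT the single-array count (6 of 8, 40.8%) therefore repeats the RNA-sample count by construction and is no further check. At any size, 6 of 8 members were higher in WT (61.3%) and 6 of 8 in MT (57.7%). The median difference over the members was 0.26 in WT and 0.35 in MT, beside 0.11 and 0.13 over all tested miRNAs. Over only the 103 miRNAs detected on all 8 arrays, as every member was, the medians were 0.17 and 0.14. The shares above are over all 142, which include miRNAs not detected on every array and so are not a fully like background.

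**Figure D2:**
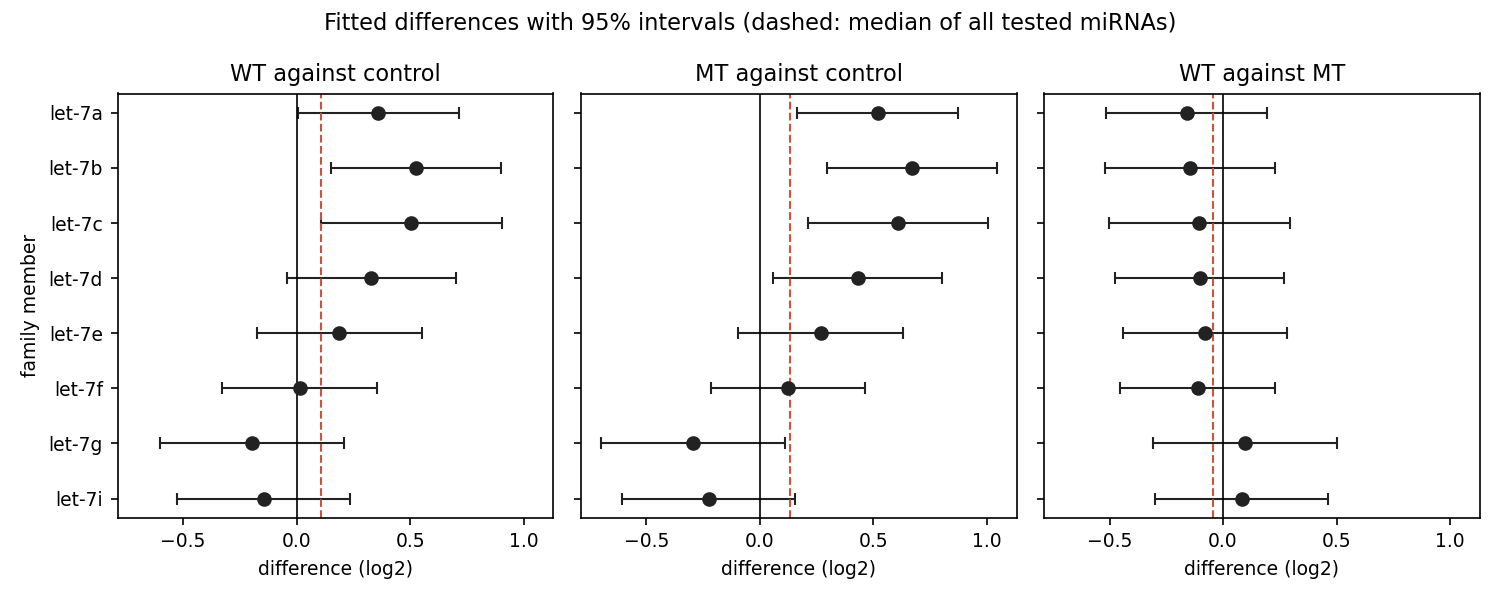
Fitted log2 difference (x axis) of each member (y axis) in the 3 comparisons, with 95% intervals from the fit over all 142 tested miRNAs; the dashed line is their median. The intervals of let-7a, let-7b and let-7c lie above 0 against the control in both panels, and every interval of WT against MT spans 0.

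WT and MT were compared directly to ask whether the E95K change altered the members. The 8 differences of WT against MT ran from -0.16 for let-7a to 0.10 for let-7g, with a median of -0.10 beside -0.04 over all tested miRNAs. The smallest unadjusted p of a member was 0.322, and the adjusted p was 0.990 for all 8. The members let-7a, let-7b, let-7e and let-7f, had both WT samples below both MT samples (4 of 8, where 17.6% of tested miRNAs did), and 0 of 8 members did so on single arrays (10.6%). In 0 of 8 members were both WT samples above both MT samples, against 8.45% of tested miRNAs, or 4.23% on single arrays. The intervals were wide, for instance -0.52 to 0.20 for let-7a and -0.31 to 0.50 for let-7g, so equal levels were not shown either.

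The members also differed among themselves in a way that dividing an array by a constant cannot move, since each can be set against the mean of the 8 members on the same array. Relative to that family mean, let-7b stood at 1.00 and 0.92 in the WT samples, 1.08 and 1.00 in MT, and 0.59 and 0.68 in the control. Every sample with protein stood above both control samples. The group means differed from the control by 0.33 in WT and 0.41 in MT for let-7b, by 0.31 and 0.35 for let-7c, and by 0.16 and 0.26 for let-7a.

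At the other end, let-7g stood at -2.68 and -2.37 in the WT samples, -2.76 and -2.61 in MT, and -2.16 and -2.09 in the control. The WT replicates, split in level, were both below the control on this measure. The group means differed from the control by -0.40 in WT and -0.56 in MT for let-7g, by -0.34 and -0.49 for let-7i, and by -0.18 and -0.14 for let-7f. For let-7a, let-7b, let-7c, let-7f, let-7g and let-7i the single arrays of each protein group did not overlap those of the control, while let-7d and let-7e overlapped. Relative to the same family mean, arrays of WT did not overlap the control for 3 of 8 members on the higher side, against 14.8% of tested miRNAs, and for 3 of 8 on the lower side, against 32.4%. In MT these counts were again 3 of 8 on each side, against 20.4% higher and 38.7% lower. The family mean was itself higher with protein, at 11.06 and 11.08 in WT, 11.19 and 11.08 in MT, and 10.83 and 10.92 in the control. Subtracting it moves the other miRNAs towards the lower side, so these shares are not a like background for the members. The values of the 8 members sum to 0 on each array by construction, so a member that gains is matched by others that lose. The unequal change does not show which member moved.

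**Figure D3:**
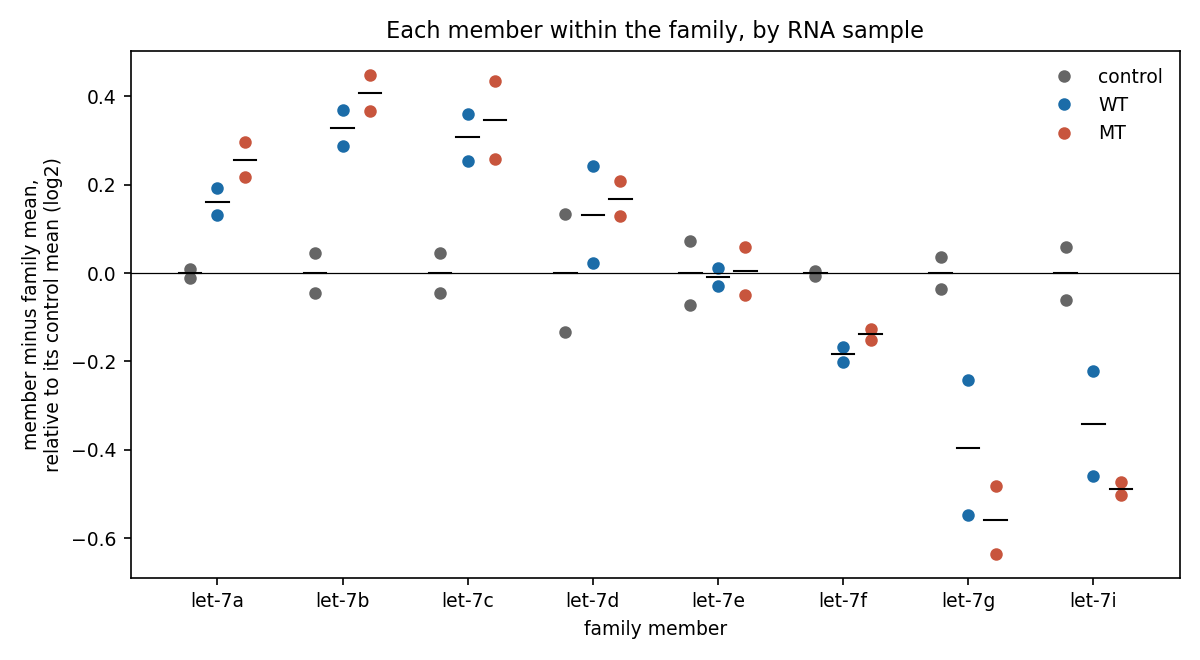
Level of each member minus the mean of the 8 members in the same RNA sample, set to 0 at the member's control mean (log2, y axis), for the members (x axis); points are RNA samples and black lines group means. The WT and MT points of let-7a, let-7b and let-7c lie above the control points and those of let-7f, let-7g and let-7i below them.

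Single pairs restated the same values in plain numbers and are no further support. let-7b had the highest differences from the control and let-7i negative ones, so a shift between them follows from those differences. The signal of let-7b exceeded that of let-7i by 2.35 and 2.03 in the WT samples, 2.44 and 2.39 in MT, and 1.41 and 1.63 in the control. Each of these is a difference between 2 probes, so its size has no meaning as a ratio of molecules, and only its shift between groups is comparable. The difference of let-7b and let-7c, by contrast, had group means of -0.68 in WT, -0.64 in MT and -0.70 in the control.

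Members made partly from neighbouring genes were set side by side, with the limit that their signal pools all their genes. Mirlet7a-1 and Mirlet7f-1 lie 262 bases apart and their products differ by 1 base, and the signal of let-7a exceeded that of let-7f by 1.16 and 1.13 in WT, 1.24 and 1.14 in MT, and 0.81 and 0.78 in the control. The control samples were lowest for this pair, with a wide gap. let-7b and let-7c, also 1 base apart and partly from genes 622 bases apart, had differences from the control within 0.02 of each other in WT and 0.06 in MT. let-7g and let-7i, 2 bases apart on different chromosomes, were within 0.05 and 0.07.

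Over the pairs of members, the gap between differences rose with sequence distance up to 4 bases by its median, and not beyond. The median gap between the differences of 2 members, WT against control, was 0.16 for the 4 pairs 1 base apart, 0.19 for the 8 pairs 2 bases apart, 0.36 for the 8 pairs 3 bases apart and 0.52 for the 6 pairs 4 bases apart. For MT against control these medians were 0.17, 0.25, 0.47 and 0.74. The single pairs at 5 and 6 bases, let-7e with let-7i and let-7d with let-7i, had gaps of 0.33 and 0.47 in WT. In MT their gaps were 0.49 and 0.66, so both lay below the medians at 4 bases in either comparison. Gaps at the same distance ranged widely, for 2 bases from 0.03 to 0.56 in WT and from 0.07 to 0.81 in MT. Most pairs 4 bases apart hold let-7g or let-7i, the members with the lowest differences. Pairs share members, so they are not independent. The part in these values of signal that a probe takes up from a near-identical relative was not tested, since the probe sequences are not used here.

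Differences from the control were also ordered by the bases at positions 11 and 12, a feature noticed after the values were seen, so it carries no test. The 5 members that match let-7a at positions 11 and 12 (let-7a to let-7e) had differences from the control of 0.19 to 0.53 in WT and 0.27 to 0.67 in MT. The 3 members with a substitution at position 12 had smaller or negative differences, of -0.20 to 0.01 in WT and -0.30 to 0.12 in MT, with let-7f on the same side of 0 as let-7a to let-7e by its brighter probe. miR-98, with G11A, had -0.09 and 0.14.

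Base composition also moved with the differences. G and C made up 7 of the 22 bases in let-7f and miR-98, 8 in let-7a and let-7g, 9 in let-7c, let-7d, let-7e and let-7i, and 10 in let-7b, the member with the highest difference from the control. Over the 118 of 142 tested miRNAs with a RefSeq sequence, the G and C share correlated with the difference from the control, with a Pearson r of 0.48 (Spearman rho 0.51) in WT and 0.52 (rho 0.53) in MT. Among the 110 of these outside the 8 members, r was 0.52 and 0.56. These correlations are across miRNAs on the same 8 arrays and the same control samples, and miRNAs are not independent replicates. Within the family r was 0.52 (rho 0.55) in WT and 0.42 (rho 0.55) in MT, over 8 near-identical members, so it carries no test. In that set, let-7i and let-7c hold the same number of G and C bases and lie on opposite sides of 0. The part of base composition in the members' values was not tested.

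The 2 probes of a member gave a check inside each array. Both probes of let-7b, for example, gave 0.53 and 0.50 in WT and 0.67 and 0.65 in MT. The signs matched for 7 of 8 members against the control in WT and in MT, and for 8 of 8 in WT against MT, with a median gap between probes of 0.07, 0.03 and 0.04. The exception was let-7f, whose dimmer probe had -0.32 in WT and -0.15 in MT where its brighter probe had 0.01 and 0.12. With the dimmer probe, let-7f would stand beside let-7g and let-7i.

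**Figure D4:**
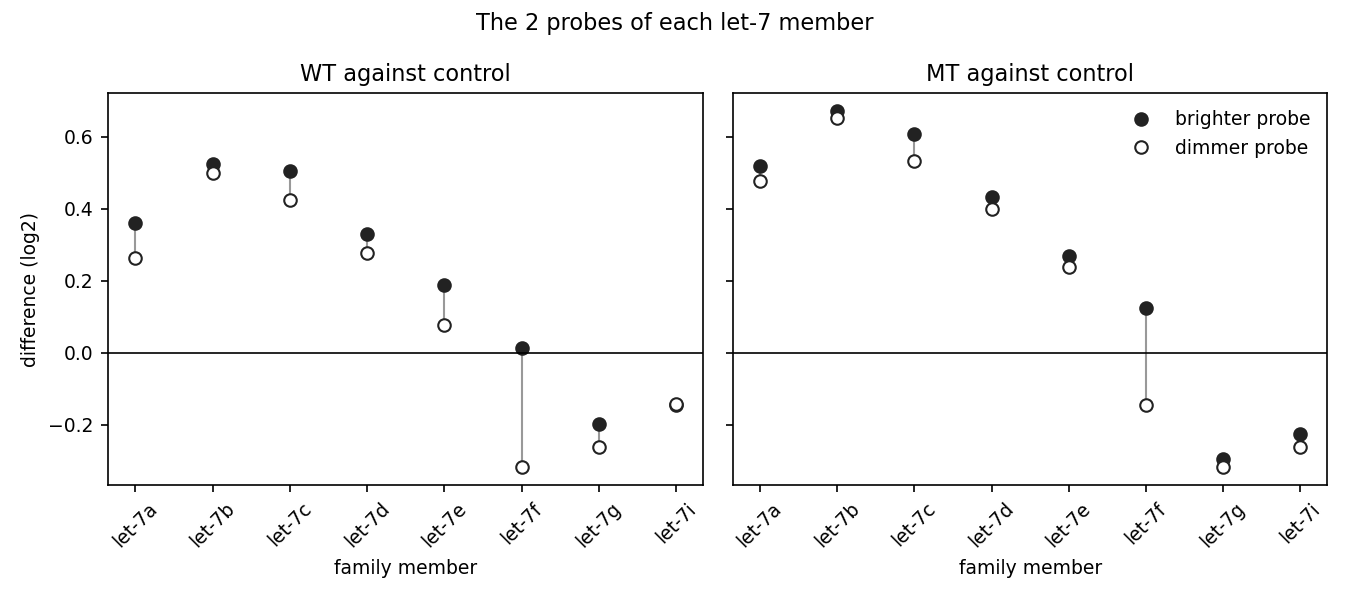
Log2 difference from the control (y axis) of the brighter probe (filled) and the dimmer probe (open) of each member (x axis), in WT and in MT. The probes of let-7f lie on either side of 0, at 0.01 and -0.32 in WT, and the probes of the other members lie on the same side.

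Repeat arrays of the same RNA showed how far the members move with no biological difference. The second array of WT replicate 1 was higher than the first in 7 of 8 members and that of replicate 2 in 8 of 8, by up to 0.29 for let-7b. The median SD between technical arrays was 0.12 over the members and 0.06 over all tested miRNAs, whereas the median SD between the WT replicates, after averaging arrays, was 0.05 over the members and 0.13 over all. Technical arrays thus differed more in the members than in a typical miRNA. MT and control RNA had 1 array each, so such a shift is inside their values and cannot be told apart from the group there.

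Position on the slide was tied to the groups. The MT arrays lay on the left of the slide with WT replicate 1, and the control arrays on the right with WT replicate 2, so MT and control cannot be told apart from the sides. All WT arrays lay in row 1 of the slide and all MT and control arrays in row 2. WT therefore cannot be told apart from the row, against the control or against MT, also within a side. Within the right side, WT replicate 2 exceeded the control mean by 0.34 for let-7a, 0.50 for let-7b, 0.46 for let-7c, 0.23 for let-7d and 0.18 for let-7e, beside a median of 0.13 over all tested miRNAs. The same subtraction gave 0.01 for let-7f, -0.03 for let-7g and -0.01 for let-7i. Within the left side, WT replicate 1 differed from the MT mean by -0.14 to -0.003 over the 8 members. With the side as a term in the fit, the MT differences of let-7g and let-7i turned from -0.30 and -0.23 to 0.032 and 0.034. That term is set only by WT replicate 1 minus WT replicate 2, which was -0.33 for let-7g and -0.26 for let-7i. Side and replicate therefore cannot be told apart in it. Fewer miRNAs were also detected on the arrays of WT replicate 1 (104 and 117) than on those of WT replicate 2 (144 and 147). The lower values of let-7g and let-7i in WT were seen in replicate 1 and not in replicate 2, and the values of let-7a, let-7b and let-7c were nearly as large within the right side as over both. The right side holds 1 WT RNA sample and the same control samples, in different rows. The parts of the side and of the row in these values were not tested.

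The way the arrays were scaled set the direction of several members. Without scaling, where the brighter control arrays kept their brightness, the WT difference was 0.03 for let-7b and 0.01 for let-7c but -0.13 for let-7a, and -0.69 for let-7g. The median of all tested miRNAs then stood at -0.32 in WT and -0.50 in MT. Relative to the median of all tested miRNAs, let-7a, let-7b, let-7c and let-7d were above 0 in 24 of 24 settings (the main one and its alternatives) in WT and in MT, and let-7g and let-7i were below 0 in all 24. Besides the main setting, 9 of these settings in WT and 11 in MT leave the fitted difference as it was by construction, so the count is not a measure of stability. The values ran from 0.06 to 0.36 for let-7a and 0.22 to 0.55 for let-7b in WT, and from -0.48 to -0.17 for let-7g. let-7e was above the median in 21 of 24 settings in WT and 24 of 24 in MT, and let-7f in 1 and 3 of 24. The sign of the difference from the control depended on the scaling for let-7a to let-7f in MT. In WT it did so for let-7a, let-7d, let-7e and let-7f, while let-7b and let-7c stayed above 0, barely so without scaling.

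**Figure D5:**
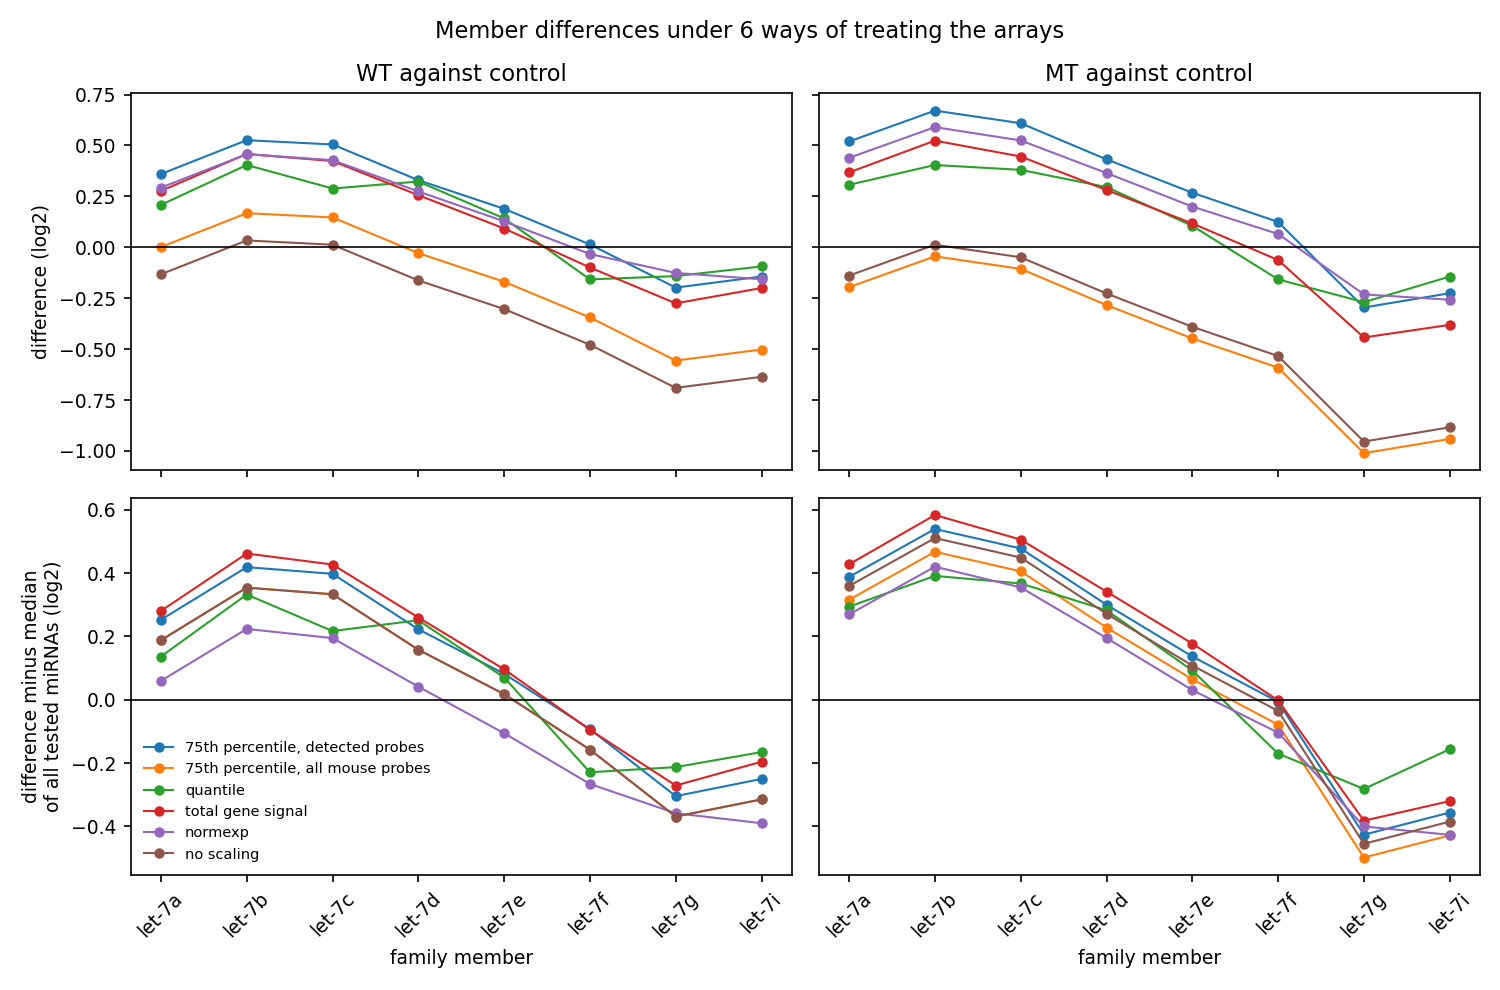
Log2 difference from the control of each member (x axis) under 6 ways of treating the arrays (colours), as fitted (top) and after subtracting the median of all tested miRNAs (bottom), in WT (left) and MT (right). The 2 lowest lines of each top panel, no scaling and the percentile over all mouse probes, move most members below 0; in the bottom left panel these 2 lines coincide.

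miR-98, the seed relative beside Mirlet7f-2 in Huwe1, had levels of 6.09 and 6.22 in WT, 6.50 and 6.26 in MT, and 6.14 and 6.34 in the control. Its groups overlapped against the control, with differences of -0.09 in WT and 0.14 in MT (adjusted p = 0.743 and 0.566). As for let-7f, its neighbour on the X chromosome, neither direction was shown.

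The passenger arms, the 3p strands that are mostly discarded as the hairpin is processed, were near or below background. Of 11 listed, 7 were on the array, 3 were detected on any array and 0 were tested. let-7d-3p was detected on 4 arrays, 2 of WT replicate 2, 1 of MT and 1 of the control, and let-7b-3p and let-7f-1-3p on 1 array each. None of these detections fell on the arrays of WT replicate 1 or MT replicate 1, where fewer miRNAs of any kind were detected. Their spread over the groups therefore carries no comparison.

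The miR-99, miR-100 and miR-125 families are made with some let-7 genes from shared clusters, and 5 of the 12 forms listed were tested. None passed the adjusted threshold in any comparison. miR-99b and miR-125a, which share a cluster with let-7e, differed from the control by 0.55 and 0.47 in WT (adjusted p = 0.139 for both) and by 0.68 and 0.54 in MT (adjusted p = 0.0611 for both), where let-7e had 0.19 and 0.27. miR-125b had 0.32 and 0.40, and miR-100 0.22 and 0.16. miR-99a, beside Mirlet7c-1, had 0.15 in WT and -0.07 in MT, where let-7c had 0.50 and 0.61. In miR-125a the levels were 9.64 and 9.57 in WT, 9.64 and 9.70 in MT, and 9.19 and 9.08 in the control, so its control samples lay apart and below.

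The mean profile of the family over the 6 RNA samples, each miRNA first centred on its own mean, was most like that of miR-500-3p, miR-877-5p and miR-378-3p outside the family. Their root mean square distance from it was 0.06, 0.09 and 0.09, where the members themselves ranged from 0.05 for let-7e to 0.26 for let-7g. The family mean was closer to some miRNAs outside the family than to most of its own members. These 3 were picked as the closest of all tested miRNAs outside the family, so their closeness carries no test.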

How the data were processed

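miRNA was measured in WT, MT and control cells, with 2 RNA samples per group. The authors deposited the scanner output of 8 one-colour Agilent miRNA arrays, with the background-subtracted intensity and the quality marks of each spot, and a table of the series with the same values to within 0.005. Feature Extraction is version 9.1 per the labels and 10.7.1.1 per the file headers, whose build is mm9. No source used here states how the authors normalized these arrays.

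Outlier spots were left out and a probe's spots averaged. With a probe called detected when over 50% of its spots were well above background, each array was scaled by the 75th percentile of the 174 probes that all 8 arrays detected, floored at 4.11 (log2), and put on the log2 scale. The brightest probe stood for a miRNA. Technical arrays were averaged first. The 3 groups were fitted together with limma 3.58.1 in R 4.3.3 (lmFit, eBayes, Benjamini-Hochberg over 142 miRNAs, threshold 0.05), without a replicate block. The fit was tested on simulated data. The array number per group limits the precision. Figures were drawn with matplotlib 3.10.9.

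The miRNAs named were the 8 members, a list of relatives, passenger arms and neighbours, and the 3 miRNAs closest to the family profile. Members and lists were chosen with earlier results of these data known. The alternatives covered scaling, background, floor, filter, probes, outliers, technical arrays, blocks, slide side and single replicates, and the values without scaling were added after seeing the data. The slide was no block, since all arrays lay on 1 slide.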

Additional observations from a re-analysis of the deposited data

How the results depend on the processing

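No member passed the threshold in WT against control or WT against MT under any alternative. In MT against control the 0 members of the main setting became 3 (let-7a, let-7b and let-7c) with normexp background correction, where 40 of 142 miRNAs (28.2%) were called, 3 (the same members) with only the miRNAs detected on all 8 arrays tested, where 29 of 103 (28.2%) were, and 2 (let-7g and let-7i, both lower) with no scaling, where 46 of 142 (32.4%) were. The same-numbered samples deviated with correlations of 0.39 (WT and control), -0.46 (MT and control) and 0.022 (WT and MT), so the numbers were not taken to pair the samples, and with the replicate block the medians stayed 0.26, 0.35 and -0.10 and no member was called. Without a filter on detection most residual variances were 0, so its test is unreliable.

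The median over the members, 0.26 in WT against control, 0.35 in MT against control and -0.10 in WT against MT, became -0.10, -0.37 and 0.25 with the 75th percentile over all mouse probes, 0.175, 0.20 and 0.014 with quantile normalization, 0.17, 0.20 and -0.025 with total gene signal, and -0.23, -0.31 and 0.063 without scaling. The median of all tested miRNAs moved to -0.19, -0.51 and 0.30 with all mouse probes and to -0.32, -0.50 and 0.11 without scaling. With the first technical array alone the median was 0.17 in WT against control and -0.18 in WT against MT, and with the second alone 0.35 and -0.0077. With the slide side in the fit, a term set only by the difference between the WT replicates, the median over the members was 0.24 in MT against control. Leaving out each replicate gave 0.20 to 0.29, 0.32 to 0.36 and -0.14 to -0.058.

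With all mouse probes the signs turned in MT against control to -0.20 (let-7a), -0.044 (let-7b), -0.11 (let-7c), -0.28 (let-7d), -0.45 (let-7e) and -0.59 (let-7f), in WT against control to -0.029 (let-7d), -0.17 (let-7e) and -0.34 (let-7f), and in WT against MT to 0.20 (let-7a), 0.21 (let-7b), 0.25 (let-7c), 0.26 (let-7d), 0.28 (let-7e) and 0.25 (let-7f). Without scaling they turned in MT against control to -0.14 (let-7a), -0.049 (let-7c), -0.23 (let-7d), -0.39 (let-7e) and -0.53 (let-7f), in WT against control to -0.13 (let-7a), -0.16 (let-7d), -0.30 (let-7e) and -0.48 (let-7f), and in WT against MT to 0.0063 (let-7a), 0.021 (let-7b), 0.062 (let-7c), 0.064 (let-7d), 0.087 (let-7e) and 0.055 (let-7f). The control arrays were the brightest, which the absence of scaling leaves in.

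let-7f turned in WT against control to -0.32 (dimmer probe), -0.15 (mean of all probes), -0.015 (first technical array), -0.033 (normexp), -0.019 (outlier spots kept), -0.16 (quantile) and -0.10 (total gene signal), and in MT against control to -0.15 (dimmer probe), -0.010 (mean of all probes), -0.16 (quantile) and -0.063 (total gene signal). Its range over the left-out replicates was -0.036 to 0.064 in WT against control. In WT against MT quantile normalization gave 0.027 for let-7d and 0.037 for let-7e, and the second technical array 0.032 for let-7e. With the slide side let-7g and let-7i turned to 0.032 and 0.034 in MT against control and to -0.066 and -0.048 in WT against MT. That term was set only by the difference between the WT replicates. Over the left-out replicates in WT against MT, let-7c ranged from -0.25 to 0.038, let-7g from -0.066 to 0.26 and let-7i from -0.048 to 0.21. The cause was not tested for these.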
